A study of Homo sapiens with 10 samples.

Results

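The genes described here encode the FOS and JUN subunits of AP-1, a transcription factor made of pairs of proteins. They comprise all probe sets whose only gene symbol in the platform annotation was FOS, FOSB, FOSL1, FOSL2, JUN, JUNB or JUND, which makes 7 of the 11963 genes that the array names in this way. The 7 genes had 14 of the 22283 probe sets of the array. RNA was measured on 10 Affymetrix hgu133a arrays of MDA-MB-435 cells, a human line labelled as melanoma, with 2 biological replicates in each of 5 groups. The groups were cells given hepatocyte growth factor (HGF, the ligand of the receptor kinase MET) for 1, 6 or 24 h, cells transduced with integrin beta 4 (ITGB4) to raise its expression stably, and, as the control of all 4, untreated cells of the same line. The labels give 1 untreated group with no harvest time of its own and no cells given an empty vector, and the descriptions of the ITGB4-transduced cells also carry the word Mock. All groups share 1 cell line, and the labels do not say whether the ITGB4-transduced cells are 1 clone or a pool.

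AP-1 forms when a FOS protein pairs with a JUN protein, or when JUN proteins pair with each other, through their leucine zippers. The pair binds DNA at the motif TGACTCA or the related TGACGTCA. Growth factors such as HGF reach AP-1 through RAS and the MAP kinases, which act on factors already bound at the FOS and JUN genes, so that FOS, FOSB, JUN and JUNB are textbook immediate-early genes. FOSL1 and FOSL2 encode the FOS-related proteins FRA-1 and FRA-2, and FOSL1 is itself a known AP-1 target. JUND is usually expressed at a steady level. AP-1 is known in melanoma and other tumours for its part in proliferation and invasion.

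The promoters of the JUN genes are shown because these genes differed between groups and because AP-1 can act on such genes itself. RefSeq (GRCh38.p14) gave 300 bases for 6 of the 7 genes, all but FOSL1, 250 before the start of transcription and 50 from it onward, and positions count from that start. Capitals mark matches on either strand to the full AP-1 motif TGACTCA, to its longer relative TGACGTCA that ATF and CREB factors also bind, and to the variant TGACATCA. They also mark the short stretch TGACG, which is the first part of the longer motif and overlaps with it, and the start site element TATAAA. A search for the CArG box, the site of the serum response factor, had a match in 1.29% of all promoters and in none of the 6. Bases outside the 300 were not searched, so this does not show that a gene lacks such a box further away.
JUN, chr1:58783998-58784297, minus strand: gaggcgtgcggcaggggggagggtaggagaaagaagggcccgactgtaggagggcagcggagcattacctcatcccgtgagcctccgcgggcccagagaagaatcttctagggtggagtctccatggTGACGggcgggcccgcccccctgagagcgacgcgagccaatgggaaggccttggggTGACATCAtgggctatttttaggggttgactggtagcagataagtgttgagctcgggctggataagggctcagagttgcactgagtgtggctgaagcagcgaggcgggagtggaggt
JUNB, chr19:12791236-12791535, plus strand: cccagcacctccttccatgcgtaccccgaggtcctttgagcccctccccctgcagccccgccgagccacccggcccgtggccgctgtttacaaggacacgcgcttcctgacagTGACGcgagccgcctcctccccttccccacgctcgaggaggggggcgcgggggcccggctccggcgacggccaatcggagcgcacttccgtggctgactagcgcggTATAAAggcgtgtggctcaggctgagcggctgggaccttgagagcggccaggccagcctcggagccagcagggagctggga
JUND, chr19:18281573-18281872, minus strand: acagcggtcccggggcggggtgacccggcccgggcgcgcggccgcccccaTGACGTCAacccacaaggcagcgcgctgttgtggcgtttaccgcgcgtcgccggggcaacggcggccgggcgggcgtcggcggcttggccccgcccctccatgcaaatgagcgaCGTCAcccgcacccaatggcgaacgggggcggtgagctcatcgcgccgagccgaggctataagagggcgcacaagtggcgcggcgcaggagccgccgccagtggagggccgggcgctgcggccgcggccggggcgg
The JUN window held TGACATCA at -67, a variant found in 2.61% of the 35116 promoters of this length, and the JUND window held TGACGTCA at -200, found in 1.85%. Neither full motif was matched in JUNB, whose window held TGACG at -137 and TATAAA at -31. TGACG was found in 24.6% of all promoters and TATAAA in 11.5%. Among the 6 windows TGACTCA was matched in FOSL2, from position 5 after the start, a motif found in 4.95% of promoters. FOS and FOSB both held TGACG, at -64 and -60, and TATAAA, at -33 and -30. These are matches of letters and no measurement of binding was made.

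Values are on the log2 scale after RMA, which sums the probes of a probe set and equalizes the arrays, so that a difference of 1 is a doubling. The array medians lay between 6.81 and 6.88. A probe set was kept for testing where it reached 7.3 on at least 2 arrays, which 10176 did. The first principal component of the kept probe sets held 41.8% of the variance and set the HGF 1 h arrays (26.2 and 15.9) apart from the HGF 6 h arrays (-17.8 and -17.9). On this component the HGF 24 h arrays lay at 11 and 16.3, and the untreated arrays at -4.95 and -5.63. The 2 ITGB4 arrays lay apart from each other on it, at -22.5 and -0.518, with the widest spread of any pair (SD of their difference over probe sets 0.281, against 0.179 to 0.277 in the other groups). ITGB4 itself, on its 3 kept probe sets, read 10.29 to 13.23 in ITGB4-transduced cells and 4.65 to 6.86 in all others, as labelled. Of the melanocyte markers on the array 15 of 17 were kept, with group medians of 10.85 to 11.09, against 3 of 13 epithelial markers (6.1 to 6.26) and 3 of 11 fibroblast markers (6.18 to 6.77). In the comparisons with untreated cells, 4 differences of melanocyte markers were called. None of the epithelial or fibroblast markers was called, and the part of these shifts in the results below was not tested.

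Of the 14 probe sets, 10 were kept, from 6 of the 7 genes. FOSB had only 1 probe set and it stayed under the limit on every array, between 6.18 and 6.78. The other probe sets left out were 1 of FOSL2 (218881_s_at, 6.93 to 7.27) and 2 of JUN (201466_s_at, 4.84 to 5.38, and 213281_at, 5.96 to 6.46). None of these 4 was called in any comparison when all probe sets were tested. The kept JUN probe set 201465_s_at passed only through the 2 HGF 1 h arrays, and FOSL2 205409_at passed through 3 arrays, 2 of them HGF 1 h. Levels of different probe sets depend on their probes and are not set against each other.

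**Figure D1:**
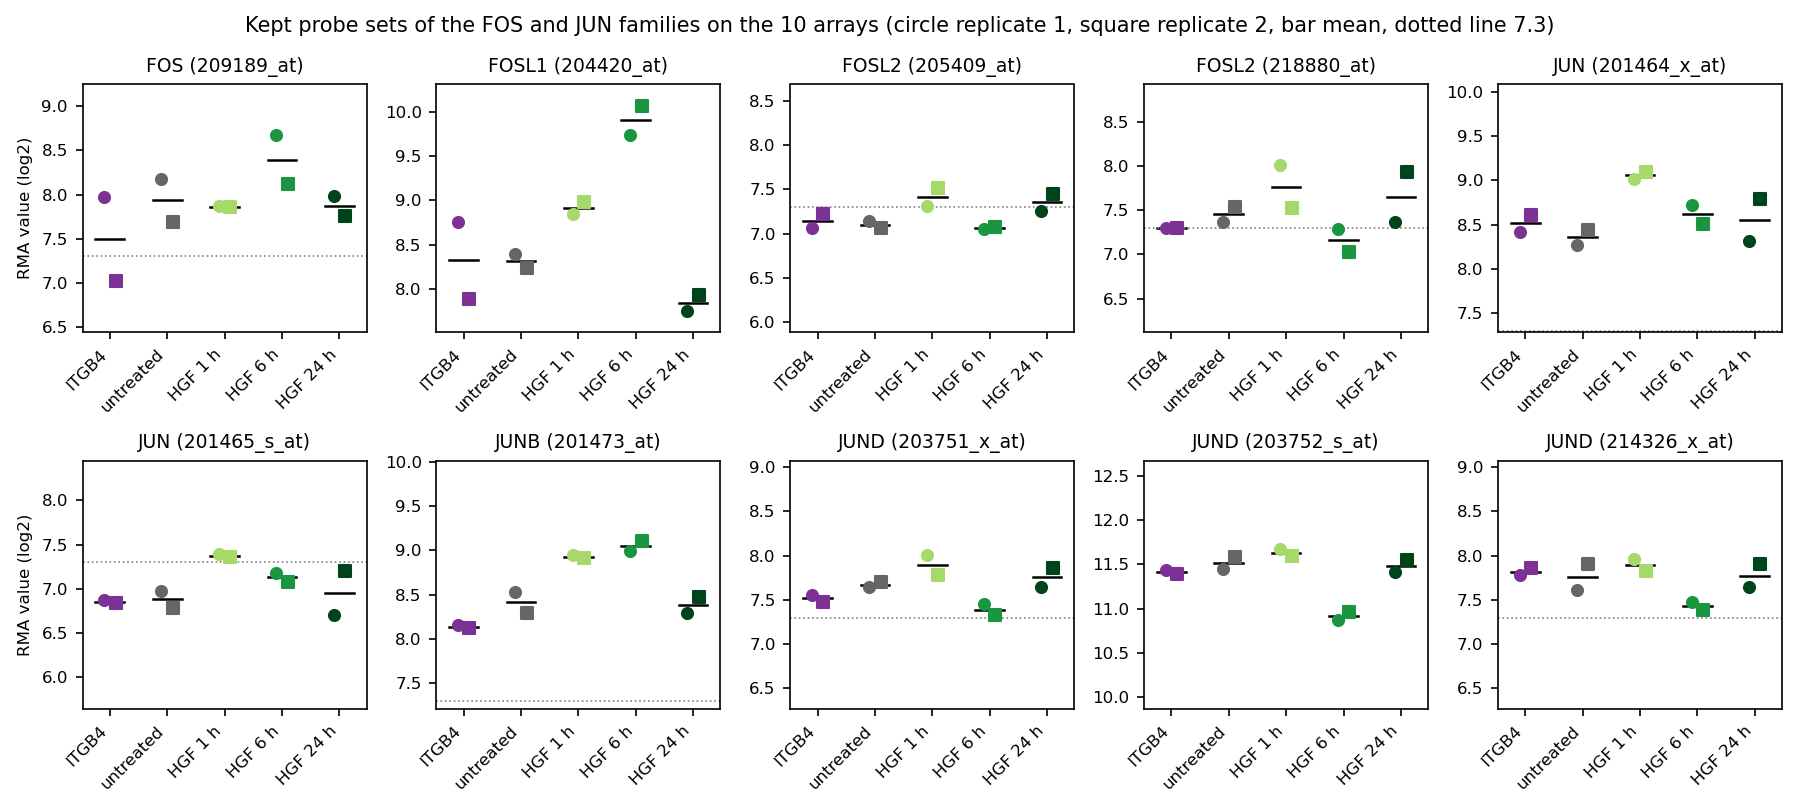
RMA values (log2) of the 10 kept probe sets of FOS and JUN genes by group, with a circle for replicate 1, a square for replicate 2, a bar at the mean and a dotted line at the limit of 7.3. FOSL1 stands highest at 6 h and lowest at 24 h, and JUND 203752_s_at stands lowest at 6 h.

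FOSL1 had the widest differences of the kept FOS family probe sets. As in any bulk RNA sample, more cells expressing a gene and more RNA per cell cannot be told apart here. Its probe set read 8.75 and 7.89 in ITGB4-transduced cells, 8.39 and 8.24 in untreated cells, 8.84 and 8.98 at 1 h, 9.74 and 10.07 at 6 h, and 7.75 and 7.93 at 24 h of HGF. Both 6 h arrays lay above every other array, and both 1 h arrays lay above the remaining arrays. The order of the means was 6 h, 1 h, untreated, ITGB4 and 24 h, and of these neighbours only the 6 h and 1 h arrays and the 1 h and untreated arrays did not overlap. FOSL1 rose by 1.59 on the log2 scale at 6 h relative to untreated cells (SE 0.23, 3-fold, limma adjusted p = 0.00639), with both 6 h arrays above both untreated arrays. It was higher at 6 h than at 1 h by 1 (SE 0.23, adjusted p = 0.016). At 24 h it fell by 2.07 relative to 6 h (SE 0.23, 0.238-fold, adjusted p = 0.000952), and this call was kept when any 1 array was left out. At 1 h FOSL1 differed from untreated cells by 0.59 (SE 0.23, adjusted p = 0.144) and at 24 h by -0.48 (adjusted p = 0.465), neither of which passed. Between 24 h and 1 h the difference was -1.07 (adjusted p = 0.108). The spread between the ITGB4 arrays entered these tests: without both of them, an alternative chosen after seeing the data, the adjusted p of the 1 h difference was 0.0321 and that of 24 h against 1 h was 0.0334. Leaving out ITGB4 replicate 1 alone gave 0.0323 and 0.0378, and replicate 2 alone 0.0322 and 0.0385. The call at 6 h against untreated cells was lost without untreated replicate 2 (adjusted p = 0.0749) or HGF 6 h replicate 2 (0.093). That at 6 h against 1 h was lost without HGF 1 h replicate 1 (0.101), HGF 6 h replicate 1 (0.0538) or HGF 6 h replicate 2 (0.127).

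FOS, the founding member of the family, read 7.97 and 7.02 in ITGB4-transduced cells, 8.18 and 7.69 in untreated cells, 7.87 and 7.86 at 1 h, 8.67 and 8.12 at 6 h, and 7.98 and 7.76 at 24 h. The 1 h arrays fell between the 2 untreated arrays, and the 6 h arrays overlapped with them. No comparison of FOS passed the test. At 1 h its difference from untreated cells was -0.07 (95% interval -0.69 to 0.55, adjusted p = 0.891), so that an increase of more than 0.55 on the log2 scale lay outside the interval at this time. At 6 h the difference was 0.46 (-0.16 to 1.08, adjusted p = 0.371), and in ITGB4-transduced cells it was -0.44 (-1.06 to 0.18, adjusted p = 0.966). The arrays hold no time before 1 h.

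FOSL2 was measured by 2 kept probe sets that lay close to the limit. The probe set 218880_at read 7.3 and 7.3 in ITGB4-transduced cells, 7.36 and 7.54 in untreated cells, 8.01 and 7.52 at 1 h, 7.29 and 7.03 at 6 h, and 7.36 and 7.93 at 24 h. The probe set 205409_at read 7.05 and 7.07 at 6 h against 7.31 and 7.52 at 1 h, and 7.06 to 7.45 on the other arrays. Neither was called in any comparison. Between 6 h and 1 h 218880_at differed by -0.61 (adjusted p = 0.0607). The difference of 205409_at was -0.36, and the mean of both probe sets differed by -0.48. As 205409_at would not have been kept without its 1 h values, its difference and that of the mean are a description. The difference of 218880_at rested on the HGF 1 h arrays: it was -0.36 without HGF 1 h replicate 1 (adjusted p = 0.335) and -0.85 without replicate 2 (0.0313). It was -0.48 without HGF 6 h replicate 2 (0.291), and its adjusted p was 0.037 and 0.0368 without HGF 24 h replicate 1 or 2.

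JUN encodes a protein that can pair with any FOS protein or with itself. Its probe set 201464_x_at read 8.42 and 8.61 in ITGB4-transduced cells, 8.27 and 8.44 in untreated cells, 9.02 and 9.1 at 1 h, 8.72 and 8.51 at 6 h, and 8.31 and 8.79 at 24 h. The 1 h arrays lay above all others, and the remaining groups overlapped with at least 1 neighbour. JUN rose by 0.71 at 1 h relative to untreated cells (SE 0.16, 1.63-fold, adjusted p = 0.0347). The x in the name of this probe set marks probes that can match other transcripts as well. The second kept probe set, 201465_s_at, read 7.39 and 7.36 at 1 h against 6.98 and 6.78 in untreated cells, a difference of 0.49. It was kept only through its 1 h values, so this difference is a description and does not bear on the call of 201464_x_at. At 6 h and 24 h the probe set 201464_x_at was 0.26 and 0.2 above untreated cells (adjusted p = 0.382 and 0.648). Between 6 h and 1 h it differed by -0.45 (adjusted p = 0.0795). That p was 0.0426 without either HGF 24 h array and 0.0759 to 0.346 without any other single array. The 1 h call was lost when any 1 of 6 arrays was left out: untreated replicate 1 (adjusted p = 0.19) or 2 (0.162), HGF 1 h replicate 1 (0.169) or 2 (0.0779), and HGF 6 h replicate 1 (0.0562) or 2 (0.0566).

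JUNB, a JUN protein with a weaker activating domain than JUN, was high at both early times. Its probe set read 8.15 and 8.12 in ITGB4-transduced cells, 8.53 and 8.29 in untreated cells, 8.95 and 8.91 at 1 h, 8.99 and 9.1 at 6 h, and 8.29 and 8.47 at 24 h. The 4 arrays at 1 h and 6 h lay above the other 6, and the 24 h arrays overlapped with the untreated ones. JUNB rose by 0.52 at 1 h (SE 0.13, 1.43-fold, adjusted p = 0.0412) and by 0.63 at 6 h (SE 0.13, 1.55-fold, adjusted p = 0.0194), both relative to untreated cells. At 24 h it fell by 0.66 relative to 6 h (SE 0.13, adjusted p = 0.00641). The difference between 6 h and 1 h was 0.11 (95% interval -0.17 to 0.39, adjusted p = 0.543). In ITGB4-transduced cells JUNB was 0.27 lower than in untreated cells with no overlap, which did not pass (95% interval -0.55 to 0.01, adjusted p = 0.843). The 1 h call was lost without untreated replicate 1 (adjusted p = 0.106) or 2 (0.257), HGF 1 h replicate 1 (0.188) or 2 (0.0649), or HGF 6 h replicate 1 (0.0709) or 2 (0.0712), and also where the spread came from the 2 compared groups alone (0.0687). The 6 h call was lost without untreated replicate 1 (0.0671) or 2 (0.175) or HGF 6 h replicate 1 (0.0911) or 2 (0.188), and the fall at 24 h without HGF 6 h replicate 2 (0.0702).

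JUND went the other way at 6 h. The probe set 203752_s_at read 11.44 and 11.39 in ITGB4-transduced cells, 11.45 and 11.58 in untreated cells, 11.67 and 11.6 at 1 h, 10.87 and 10.96 at 6 h, and 11.41 and 11.55 at 24 h. Both 6 h arrays lay below all others. It fell by 0.6 at 6 h relative to untreated cells (SE 0.12, 0.658-fold, adjusted p = 0.0174) and by 0.72 relative to 1 h (SE 0.12, adjusted p = 0.00494), and it was higher at 24 h than at 6 h by 0.57 (SE 0.12, adjusted p = 0.00837). The fall from 1 h was kept when any 1 array was left out. The 2 other probe sets of JUND read 7.45 and 7.33 (203751_x_at) and 7.47 and 7.38 (214326_x_at) at 6 h, against 8.01 and 7.78 and against 7.96 and 7.83 at 1 h. They fell by 0.51 (adjusted p = 0.0241) and by 0.47 (adjusted p = 0.0432) between these times. The 3 probe sets measure 1 gene and are not separate evidence, and 2 of them can match other transcripts. Relative to untreated cells these other probe sets differed at 6 h by -0.27 (adjusted p = 0.235) and -0.33 (adjusted p = 0.19), and the mean over the 3 was -0.4 with an adjusted p of 0.0667. The call of 203752_s_at against untreated cells was lost without untreated replicate 1 (0.0882) or 2 (0.156) or HGF 6 h replicate 1 (0.122) or 2 (0.139), and that at 24 h against 6 h without HGF 6 h replicate 1 (0.0712) or 2 (0.0551). Between 6 h and 1 h, 203751_x_at was not called without HGF 1 h replicate 1 (0.145) or HGF 6 h replicate 1 (0.0848) or 2 (0.162). The same comparison of 214326_x_at was not called without HGF 1 h replicate 1 (0.184) or 2 (0.0625) or HGF 6 h replicate 1 (0.131) or 2 (0.212). It was not called either with no filter (0.0557), after median centring (0.0621) or after cyclic loess (0.0513).

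**Figure D2:**
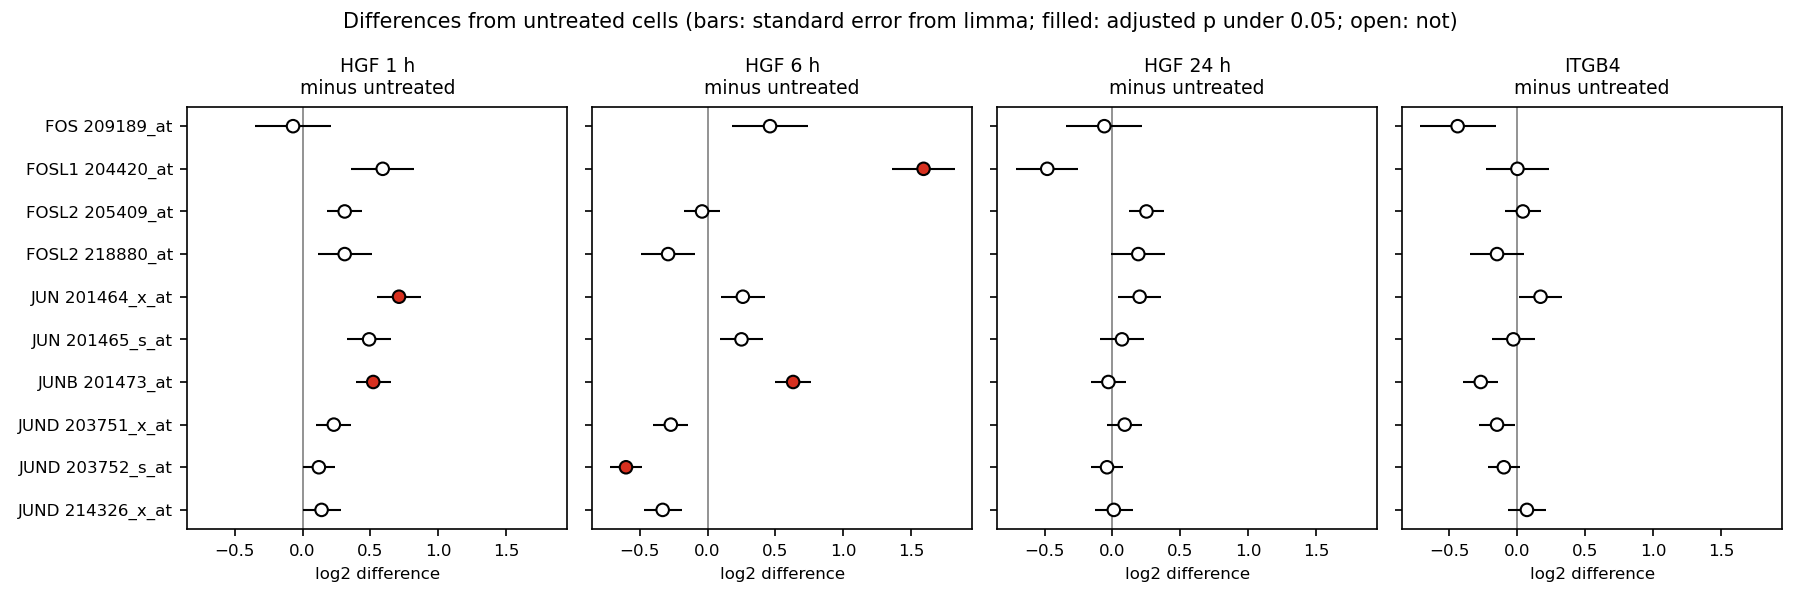
Difference from untreated cells (log2) of the 10 kept probe sets in each tested group, with bars of 1 standard error from limma and filled points where the adjusted p was under 0.05. The filled points are JUN and JUNB at 1 h and FOSL1, JUNB and JUND at 6 h.

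Counted over the kept probe sets, 2 of 10 rose at 1 h relative to untreated cells and 0 fell, where 0.58% of all kept probe sets rose and 5.09% fell. The median difference was 0.31 over the 10 and 0.06 over all, but JUN 201465_s_at and FOSL2 205409_at would not have entered the 10 without their 1 h values. This limit also holds for the medians of 6 h and 24 h relative to 1 h. At 6 h 2 rose and 1 fell, where 3.88% of all rose and 2.33% fell, with medians of 0.1 and 0.01. No FOS or JUN probe set was called at 24 h, as was the case for 0% of all kept probe sets, or in ITGB4-transduced cells, where 0.0491% of all were called. At an unadjusted p under 0.05 limma gave 0 of the 10 and 1134 of all at 24 h, and 0 of the 10 and 618 of all in ITGB4-transduced cells. At 6 h relative to 1 h 1 rose and 3 fell, where 11.9% of all rose and 6.4% fell, with medians of -0.4 and -0.02. At 24 h relative to 6 h 1 rose and 2 fell, where 6.95% of all rose and 12.5% fell, with medians of 0.12 and -0.01. At 24 h relative to 1 h none of the 10 was called and 0.00983% of all was, while 4 of the 10 and 1492 of all had an unadjusted p under 0.05. The comparisons share arrays, so that a high or low HGF 6 h array enters 3 of them.

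**Figure D3:**
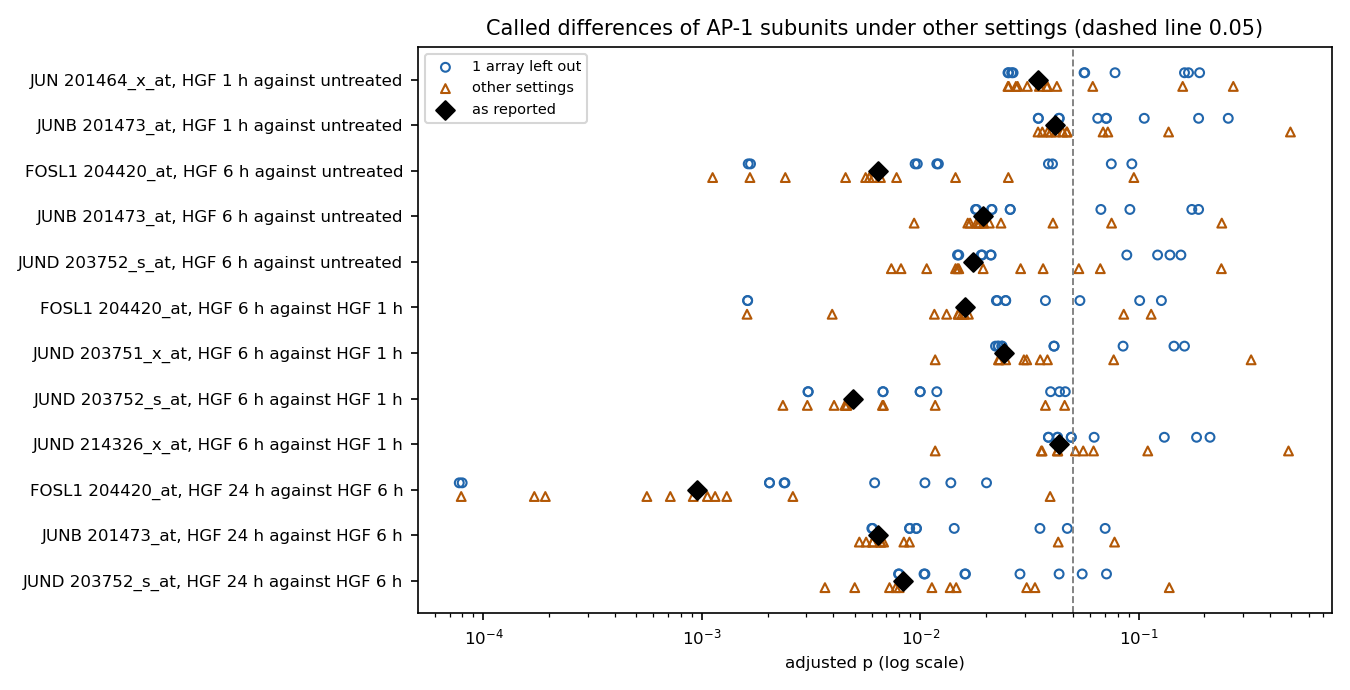
Adjusted p (log axis) of the 12 called differences of FOS and JUN probe sets, with a diamond for the reported value, circles for leaving out 1 array, triangles for other settings and a dashed line at 0.05. FOSL1 at 24 h against 6 h and JUND 203752_s_at at 6 h against 1 h stay left of the line in all settings shown.

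The other genes of the pathway were taken from fixed lists, and a gene counted as called if at least 1 kept probe set of it was. Signalling from HGF to the MAP kinases had 14 kept genes of 18 on the array. None was called at 1 h (median difference 0.17), and 1 rose at 6 h, where 4.73% of all kept genes rose and 2.97% fell. This was HRAS, a RAS protein, which read 8.29 and 8.59 at 6 h against 7.68 and 7.76 in untreated cells (difference 0.72, adjusted p = 0.0353). At 24 h relative to 6 h 2 rose and 3 fell, where 8.15% of all genes rose and 14% fell. The 3 include MAP2K4, whose probe set 203266_s_at was kept only through the 6 h arrays (7.59 and 7.39). Its fall is therefore a description. MET, the receptor of HGF, was among those that fell, on 1 of its 3 kept probe sets. This probe set, 203510_at, read 8.01 and 7.51 at 24 h against 8.52 and 8.41 at 6 h (difference -0.7, adjusted p = 0.0384). HRAS fell by 0.85 (adjusted p = 0.00738). Among factors that act on the FOS and JUN genes, with 8 kept of 11, ELK3, a partner of the serum response factor, read 6.68 and 6.94 at 1 h against 7.54 and 7.87 in untreated cells. It fell by 0.9 (adjusted p = 0.0231), where 6.45% of all genes fell. At 6 h it read 8.09 and 8.06 and was 1.27 higher than at 1 h (adjusted p = 0.00301), where 13.5% of all genes rose. SRF, the serum response factor, was 0.59 higher at 6 h than in untreated cells on 1 of its 2 kept probe sets, 202400_s_at. Besides the 6 h arrays, only HGF 1 h replicate 2 reached the limit on 202400_s_at, so this difference is a description. At 24 h relative to 6 h 4 of the 8 fell and none rose, with a median of -0.55, where 14% of all genes fell. Among them were ELK3 (-0.86), ETS1 (-0.67) and SRF on 202401_s_at (-0.66), and each of these calls was lost without some single array. The call of MET was lost without any of 5 arrays (up to 0.214). The call of HRAS at 24 h was lost without HGF 6 h replicate 2 or HGF 24 h replicate 1 (up to 0.0853). The call of HRAS at 6 h was lost without any 1 of the 4 arrays compared. That of ELK3 at 1 h was lost without either untreated array or HGF 1 h replicate 1 (up to 0.182).

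Of the other immediate-early genes, 14 of 18 were kept. At 1 h 2 of them rose and none fell, where 0.814% of all kept genes rose, and the median difference was 0.22 over the list and 0.07 over all kept genes. NR4A1, an orphan nuclear receptor, had 3 kept probe sets, of which 1 rose and 2 did not pass. The one that rose, 202340_x_at, read 9.05 and 9.22 at 1 h against 8.46 and 8.5 in untreated cells (difference 0.65, SE 0.13, adjusted p = 0.0231). Probes of 202340_x_at can match other transcripts as well. IER2 read 10.68 and 10.44 at 1 h against 10.09 and 9.98 (difference 0.53, adjusted p = 0.0474), and at 6 h 10.69 and 10.59 (difference 0.61, adjusted p = 0.0285). EGR1, a zinc finger factor induced with FOS in many cells, read 7.78 and 7.28 in untreated cells, 8.57 and 7.91 at 1 h, 8.44 and 7.66 at 6 h, and 6.1 and 6.33 at 24 h. It was not called at 1 h or 6 h and fell by 1.84 at 24 h relative to 6 h (SE 0.5, adjusted p = 0.0265). The call of NR4A1 was lost without either untreated array or HGF 1 h replicate 1 (up to 0.155), and that of IER2 at 1 h without any of 7 arrays (up to 0.25). That of IER2 at 6 h and that of EGR1 at 24 h were lost without any of the 4 arrays compared (up to 0.185 and 0.166).

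Of the factors with a leucine zipper of the same kind, which can pair with FOS or JUN or share their sites, 7 of 11 were kept. At 6 h relative to untreated cells 2 fell and none rose, where 2.97% of all kept genes fell, and the median difference was -0.51 over the list and 0.01 over all kept genes. ATF4, the main factor of the integrated stress response, read 10.93 and 10.87 at 6 h against 11.92 and 12.16 in untreated cells (difference -1.14, SE 0.15, adjusted p = 0.00456). MAFF, a small MAF protein, read 10.59 and 10.48 against 11.5 and 11.19 (difference -0.81, adjusted p = 0.021). ATF3, which is both a partner of JUN and an immediate-early gene, read 8.62 and 8.52 at 6 h against 9.73 and 9.53 at 1 h (difference -1.06, adjusted p = 0.00494). NFE2L2, the factor of the antioxidant response, was the 1 member that fell at 1 h (difference -0.68, adjusted p = 0.0406), where 6.45% of all genes fell. The calls against untreated cells depended on single arrays: ATF4 was lost without untreated replicate 2 or HGF 6 h replicate 2 (up to 0.0723), MAFF without any of the 4 arrays compared (up to 0.183), and NFE2L2 without any of 6 arrays (up to 0.198). ATF3 at 6 h against 1 h was lost without HGF 6 h replicate 2 (0.0526).

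Genes known as targets of AP-1 had 11 kept members of 20 on the array. At 6 h relative to untreated cells 4 passed the test upward and none downward, where 4.73% of all kept genes rose and 2.97% fell. CXCL8, the chemokine interleukin 8, read 7.53 and 7.59 at 6 h against 6.38 and 5.9 in untreated cells. It was kept only through the 6 h arrays where it is high, so its comparisons with 6 h are a description. MT2A, a metallothionein, read 11.39 and 11.6 against 10.35 and 10.7 (difference 0.97, adjusted p = 0.00753). It had 1 kept probe set, 212185_x_at, whose probes can match other transcripts as well. CCND1, the G1 cyclin D1, read 7.92 and 7.88 on 208711_s_at against 7.14 and 6.85, a difference of 0.9, and its other kept probe set did not pass. Besides the 6 h arrays, only ITGB4 replicate 1 reached the limit on either CCND1 probe set. Neither would have been kept without the 6 h arrays, so the comparisons of CCND1 with 6 h are a description too. The last was PLAUR, the urokinase receptor, named after its values were seen, at 0.56 on 211924_s_at (adjusted p = 0.0361) and 0.49 on 210845_s_at (adjusted p = 0.0336). Without CXCL8 and CCND1, the upward calls that stand are those of MT2A and PLAUR. At 1 h none rose and SPP1, the secreted protein osteopontin, fell by 0.57 (adjusted p = 0.032, lost without any of 5 arrays, up to 0.2), where 6.45% of all genes fell. At 24 h relative to 6 h CCND1 fell by 2.07 on 208712_at, MT2A by 0.88 and PLAUR by 0.49 on 211924_s_at, where 14% of all genes fell. CD44, a hyaluronan receptor, was higher by 0.51 on 204490_s_at (adjusted p = 0.019), and 2 of its 6 kept probe sets passed. The median difference of the 11, CXCL8 and CCND1 included, was 0.14 at 6 h against untreated cells, beside 0.01 over all kept genes. At 6 h MT2A lost its call without untreated replicate 1 or HGF 6 h replicate 2, and PLAUR without any of the 4 arrays compared. At 24 h against 6 h the call of MT2A was kept whichever array was left out. The calls of PLAUR 211924_s_at and CD44 were each lost without any of 3 arrays. The list of targets was drawn from general knowledge of AP-1 and holds genes with other regulators too.

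**Figure D4:**
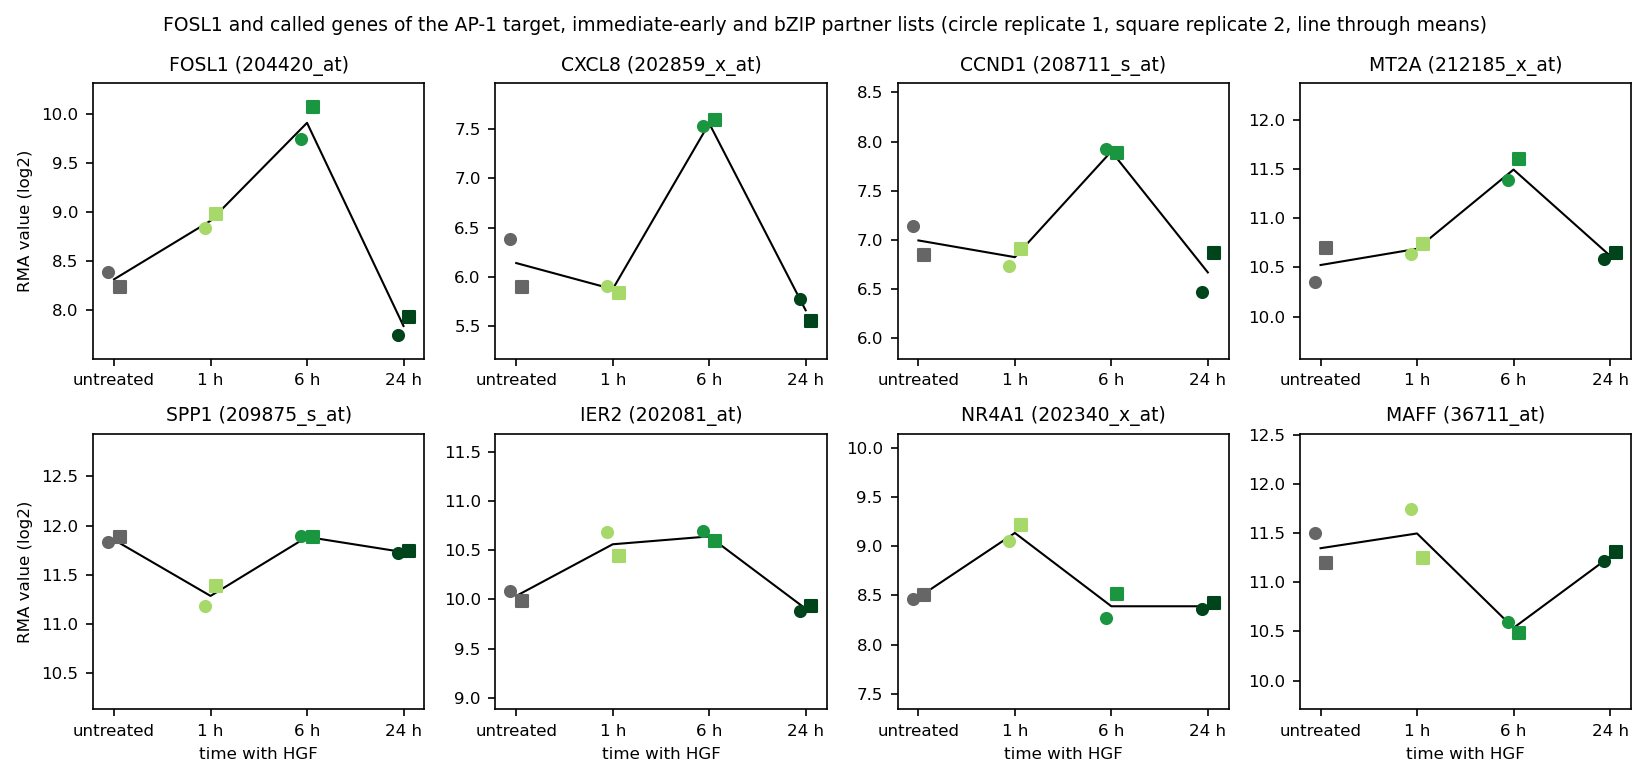
RMA values (log2) of FOSL1 and 7 called genes of the AP-1 target, immediate-early and bZIP partner lists in untreated cells and after 1, 6 and 24 h of HGF, with a circle for replicate 1, a square for replicate 2 and a line through the means. CXCL8, CCND1 and MT2A stand highest at 6 h, as FOSL1 does, and MAFF stands lowest there. CXCL8 and CCND1 would not have been kept without the 6 h arrays, so their height there is a description.

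The kept probe sets of other genes whose values followed those of a called FOS or JUN gene most closely over the 10 arrays were taken by Pearson's r, as a description, since the points share the same 5 groups. For FOSL1 they were STEAP1B (0.99), RBM14, NOP16, ISG20L2 and POLR2L (0.98 each), and the most opposed were TRAK1, SSH3 and NBR1 (-0.96 each). For JUN they were DIABLO (0.97), DEDD (0.96), ZNF672 (0.95), ATOX1 and COX8A (0.94 each), and the most opposed were DPP8 (-0.97), RPL7 (-0.96) and GCC2 (-0.93). For JUNB they were EXOSC4 and THOC6 (0.98 each), NFKBIA, TRPM2 and ARF6 (0.97 each), and the most opposed were ANKRD28 (-0.97), CAT and CRYZL1 (-0.96 each). For JUND they were KIFAP3 and FBXO7 (0.97 each), ATF4 and EPOR (0.96 each) and HERPUD1 (0.95), and the most opposed were SEM1 (-0.96), TTPAL (-0.95) and GABPB1 (-0.94). The group means of POLR2L (7.65) and GABPB1 (7.7) exceeded the limit of 7.3 only at 6 h. That of CRYZL1 did so only in ITGB4-transduced cells (7.49), so the filter bears on the place of these genes here. High values of r were not confined to the genes named. With FOSL1 r was above 0.9 for 213 of 9097 probe sets compared, and with JUNB for 120 of 9097. With JUND it was above 0.9 for 55 of 9095, and with JUN for 19 of 9096. Between the families, FOSL1 and JUNB had an r of 0.81 over the 10 arrays and FOSL1 and JUN 201464_x_at one of 0.24. FOSL1 and the JUND probe sets had an r of -0.68 to -0.42. The highest r between the families was that of FOSL2 218880_at and JUND 203751_x_at (0.95).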

How the data were processed

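Gene expression was measured on 10 Affymetrix hgu133a arrays of MDA-MB-435 cells, 2 in each of 5 groups, grouped by the titles and treatments in the labels. The authors summarized the probes with RMA, so the deposited log2 values had been equalized between arrays (range 2.19 to 14.28). The study's presence calls were not used here, so a limit of 7.3 on at least 2 arrays stood in for them. Symbols came from the platform annotation (19065 probe sets with 1 symbol, 1043 with several, 2107 with none, besides 68 control probe sets, which were left out).

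The 10 arrays entered 1 limma fit (limma 3.58.1, R 4.3.3) with 5 group means, after tests on simulated data. Variances had 5 residual degrees of freedom, and the empirical Bayes prior added 5.94. Within each of 7 comparisons the Benjamini-Hochberg method was applied to the p-values of all 10176 kept probe sets, and a difference was called at an adjusted p under 0.05. With 2 arrays against 2 an exact two-sided permutation test cannot go below 0.333, so single values were not tested that way. Alternatives covered the filter, the scaling, the spread, the adjustment, a fold threshold of 1.2, the replicate number as a block and leaving out each array. The precision is limited by the number of arrays and, for dim probe sets, by background.

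All probe sets of the 7 genes are reported. At most 3 called genes per direction and comparison were chosen for naming from each list, and PLAUR was added after its values were seen. Where none was called, the 2 largest differences of the immediate-early and target lists were also chosen, but they are not given above. Not all comparisons of the lists, nor all genes so chosen, are described. For each gene called against untreated cells the 5 most and 3 least correlated probe sets were named. The members and lists were chosen with earlier results of these data known.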

Additional observations from a re-analysis of the deposited data

Results flagged for a closer look

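The FOS and JUN genes below differed from untreated cells to an unequal extent at the HGF time points, by limma's test of the time points against each other. FOSL1 was 1 higher on the log2 scale at 6 h than at 1 h (adjusted p = 0.016) and fell by 2.07 at 24 h relative to 6 h (adjusted p = 0.000952). JUNB fell by 0.66 at 24 h relative to 6 h (adjusted p = 0.00641). JUND was lower at 6 h than at 1 h, with differences of -0.72 on 203752_s_at (adjusted p = 0.00494), -0.51 on 203751_x_at (adjusted p = 0.0241) and -0.47 on 214326_x_at (adjusted p = 0.0432), and it was 0.57 higher at 24 h than at 6 h on 203752_s_at (adjusted p = 0.00837).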

How the results depend on the processing

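Of the 70 differences of kept FOS and JUN probe sets, 20 were called in the reported fit or in some alternative, 50 in none, and 0 changed direction among those called. At 1 h against untreated cells the count of called probe sets was 2 as reported and 0 with the unmoderated spread, with the adjustment over 4 comparisons and with the fold threshold of 1.2, and it lay between 0 and 3 when 1 array was left out. It stayed at 2 with the spread of the 2 compared groups, but JUNB lost its call (adjusted p = 0.0687) and FOSL1 gained one (0.0456). At 6 h against untreated cells it was 3 as reported, 0 with the unmoderated spread and 1 with the fold threshold, and between 0 and 3 with 1 array left out. At 6 h against 1 h it was 4 as reported, 3 with no filter, median centring or cyclic loess, where JUND 214326_x_at lost its call, 6 with the spread of the 2 compared groups, 2 with the stricter filter (8 in place of 7.3), under which JUND 203751_x_at and 214326_x_at were no longer tested, 1 with the unmoderated spread and 1 with the fold threshold, and between 1 and 6 with 1 array left out. At 24 h against 6 h it was 3 as reported and 1 with the fold threshold, and between 1 and 3 with 1 array left out. At 24 h against 1 h it was 0 as reported and 1 with the spread of the 2 compared groups or without the ITGB4 arrays, an alternative chosen after seeing the data, and between 0 and 1 with 1 array left out. A lone array left in a group was assumed to vary like the other groups. The reported fit did not pair arrays by replicate number, since the rule set for pairing asked for correlations above 0.1 in all pairs of groups. Deviations of arrays with the same number correlated between -0.14 and 0.46 over 10 pairs of groups, 8 of them above 0.1. Whether arrays of the same number share an effect was not tested further. With the replicate number as a block the count stayed at 2 at 1 h and at 3 at 6 h against untreated cells, and no other count of FOS and JUN probe sets moved. Over all kept probe sets the block raised the number called against untreated cells from 577 to 796 at 1 h and from 632 to 902 at 6 h. The cause of the moves was not tested. Dim probe sets near 7.3, those of FOSB and FOSL2 among them, allow little to be told.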
